A study of Mus musculus with 14 samples.

Results

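The corticosteroid receptors, the enzyme that regenerates their ligand and 6 genes that corticosteroids induce were followed in hippocampal RNA of mice labelled LPAR2-/- and of wild-type (WT) mice. The 9 genes were chosen by name from a table of 24421 genes. They are the receptors Nr3c1 and Nr3c2, the enzyme gene Hsd11b1, and the induced genes Fkbp5, Sgk1, Tsc22d3, Zbtb16, Klf9 and Cebpd. All 9 passed the filter on low counts, as did 14897 genes in all.

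The study describes the mice labelled LPAR2-/- as lacking part of exon 2 of Lpar2, the gene of a receptor for lysophosphatidic acid. The mutant line was bred as homozygotes, separately from the control colony, whose background mixes C57BL/6 with 129/SvJ. Each genotype was represented by 7 naive, untreated males of the strain 129.C57Bl6 with 1 library per mouse, so that genotype and colony cannot be told apart. Ages of 10 to 12 weeks stand on the labels, which the title and the design text of the series contradict by calling the mice aged, and the tissue is called hippocampus on the labels and dentate gyrus in the study's results. The time of day at which the tissue was taken, on which circulating corticosterone depends, was not given in the sources used here.

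Corticosterone, the main glucocorticoid of mice, enters the brain and binds intracellular receptors. The mineralocorticoid receptor, encoded by Nr3c2, binds it with high affinity and is abundant in the hippocampus, whereas the glucocorticoid receptor, encoded by Nr3c1, has a lower affinity and is engaged at the daily peak and under stress. The activated receptors move to the nucleus and bind palindromic response elements near their target genes. The transcript levels of such targets are commonly read as a trace of recent exposure to the hormone, although other signals regulate most of them as well.

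The promoter of Sgk1 is shown because it carried the full palindrome of such an element. Promoter windows from 250 bases before to 50 bases after a start site were taken from RefSeq (GRCm38.p6) and were found for 6 of the 9 genes, with 13 windows in all. Nr3c1, Zbtb16 and Cebpd had no entry. The motif searched was GNACANNNTGTNC, which reads the same on both strands. It was present in 1 of the 13 windows and in 0.475% of the 32851 windows of all genes. The match lay in the window of Sgk1 at chr10:21993640-21993939 on the plus strand, at 188 to 176 bases before the start site, a start that GENCODE lists too. The capitals mark the matched letters.
Sgk1, start at 21993890: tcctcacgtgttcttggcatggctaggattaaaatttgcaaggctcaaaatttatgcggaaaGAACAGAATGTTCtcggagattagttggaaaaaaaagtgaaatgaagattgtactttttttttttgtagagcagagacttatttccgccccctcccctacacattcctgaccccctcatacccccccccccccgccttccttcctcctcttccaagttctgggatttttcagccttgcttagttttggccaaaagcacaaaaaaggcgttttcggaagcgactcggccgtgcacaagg

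A shorter core, ACANNNTGT, which is contained in the longer motif, was present in 6.85% of all windows and in 2 windows of these genes. The second of these belonged to another start site of Sgk1, at chr10:21978422-21978721 on the plus strand, also listed by GENCODE. Its match, ACAGTTTGT, lay 127 to 119 bases before that start. Gene counts do not tell the start sites of Sgk1 apart, and a missing match says only that these letters were not in the window.

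The targeted gene was examined first as a check of the labels. Lpar2 on chromosome 8 (69822565 to 69831102, mm10 as are all gene positions here) had 144 to 234 counts in the libraries labelled LPAR2-/- and 27 to 66 counts in WT libraries, a log2 fold change of 2.01 with a standard error of 0.157 (edgeR, adjusted p = 8.2e-07). The counts were thus higher, not lower, in the libraries labelled LPAR2-/-. Counts per gene do not resolve the deleted part of the exon, so they neither bear out nor contradict the deletion, and directions below refer to the labels. Total counts ranged from 15434620 to 23258949 in the libraries labelled LPAR2-/- and from 16373410 to 21992980 in WT libraries. Over all genes tested, 6.77% passed an adjusted p of 0.05 in edgeR, 3.32% as higher and 3.46% as lower in mice labelled LPAR2-/-, and the median log2 fold change was 0.0029. That is 494 genes higher and 515 lower, a split that became 616 and 377 with upper quartile scaling in place of TMM.

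Of the 9 genes, 1 passed this threshold. Cebpd rose in mice labelled LPAR2-/- by 1.30-fold, and neither receptor, nor Hsd11b1, nor any of the other 5 induced genes passed. These 5 all had negative fold changes, from −0.30 for Tsc22d3 to −0.08 for Klf9 on the log2 scale, but none can be called lower from these mice. In RNA of whole tissue, a change in the number of expressing cells and a change of RNA per cell cannot be told apart. This holds for each of the 9 genes, Cebpd among them. Intervals of 95% placed the log2 fold changes of both receptors between −0.12 and 0.20. The groups overlapped for all 9 genes, as for most genes, since only 1.77% of all genes tested had groups that did not overlap. At an unadjusted p under 0.05, Cebpd and Tsc22d3 passed, beside 22.4% of all genes.

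**Figure D1:**
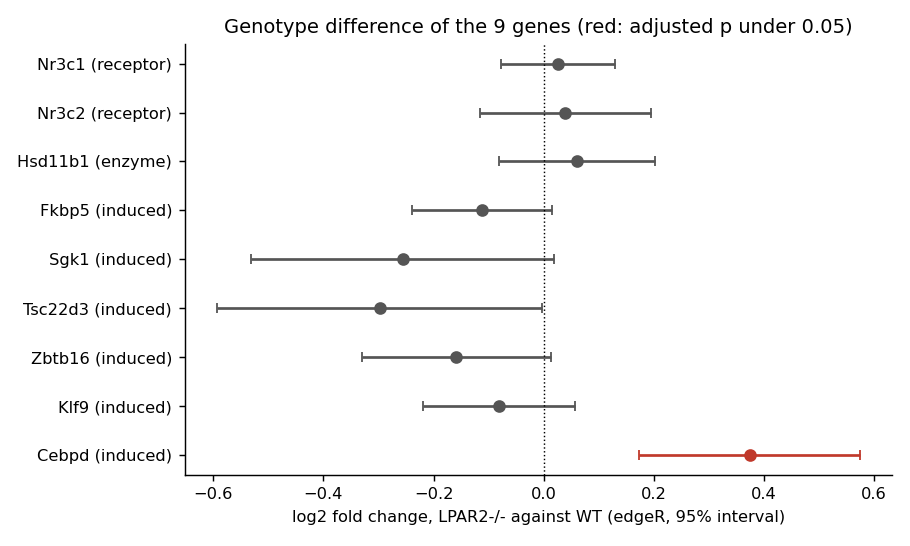
Log2 fold change of each of the 9 genes between LPAR2-/- and WT mice (horizontal axis, edgeR), with bars for the 95% interval and red for an adjusted p under 0.05. Cebpd, at 0.37, is the single gene whose adjusted p passed, and the receptors lie close to 0.

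Nr3c1, the glucocorticoid receptor gene (chromosome 18, 39410545 to 39487245, minus strand), had a lowest level of 64.1, a median of 74.6 and a highest level of 75.6 CPM (counts scaled by library size) in mice labelled LPAR2-/-. In WT mice these levels were 64.9, 70.8 and 77.9 CPM. LPAR2-/- mouse 3 was the lowest of all 14 mice, while the other 6 mice labelled LPAR2-/- lay above the WT median and below the 2 highest WT mice. Between genotypes Nr3c1 had a log2 fold change of 0.03, with a 95% interval from −0.08 to 0.13 (edgeR, adjusted p = 0.799).

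Nr3c2, the mineralocorticoid receptor gene (chromosome 8, 76902508 to 77243639, plus strand), ranged from 101 to 121 CPM in mice labelled LPAR2-/- (median 114) and from 90.9 to 134 CPM in WT mice (median 105). The WT range enclosed that of the mice labelled LPAR2-/-, with 3 WT mice below and 2 above it. The log2 fold change was 0.04, with an interval from −0.12 to 0.20 (edgeR, adjusted p = 0.80). The gene lies 7.25 Mb from Lpar2 (distance between midpoints), inside a window of 10 Mb to either side in which 26.5% of 155 genes tested passed the threshold. It is the only one of the 9 genes in that window.

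The balance of both receptors was computed per mouse as the ratio of Nr3c2 to Nr3c1 in RPKM (CPM divided by the exon length in kilobases), a quantity chosen after the values had been seen. It ranged from 2.07 to 2.79 in mice labelled LPAR2-/- (median 2.37) and from 2.00 to 3.19 in WT mice (median 2.30). WT mouse 7 had the highest ratio, with the lowest Nr3c1 and the highest Nr3c2 of the WT mice. The difference of the mean log2 ratio was 0.02 (exact two-sided permutation test over all arrangements of 7 mice against 7, p = 0.855).

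Hsd11b1 encodes 11β-hydroxysteroid dehydrogenase type 1, which turns inactive 11-dehydrocorticosterone into corticosterone inside cells. The gene (chromosome 1, 193221641 to 193264045, minus strand) ranged from 32.2 to 43.6 CPM in mice labelled LPAR2-/- (median 38.9) and from 32.6 to 41.7 CPM in WT mice (median 36.6). Mice labelled LPAR2-/- included the lowest and the highest value, mouse 1 and mouse 7. Its log2 fold change was 0.06, with an interval from −0.08 to 0.20 (edgeR, adjusted p = 0.638).

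Cebpd, a transcription factor of the C/EBP family that glucocorticoids and inflammatory signals induce (chromosome 16, 15887286 to 15889545, plus strand), was the least abundant of the 9, with 202 to 472 counts per mouse. It ranged from 13.8 to 20.3 CPM in mice labelled LPAR2-/- (median 16.4) and from 10.4 to 14.6 CPM in WT mice (median 11.8). All 7 mice labelled LPAR2-/- lay above the WT median, and 5 of them lay above every WT mouse. LPAR2-/- mouse 4 was the highest. The log2 fold change was 0.37, with a standard error of 0.0951 and an interval from 0.17 to 0.58 (edgeR, adjusted p = 0.0268; exact two-sided permutation test of 7 mice against 7, p = 0.00466). With 1 mouse left out, the adjusted p stayed under 0.05 in 10 of 14 fits and reached 0.0620 at most (without WT mouse 2), and the log2 fold change stayed between 0.31 and 0.41. It missed the threshold without LPAR2-/- mouse 4 and without WT mouse 2, 3 or 5.

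**Figure D2:**
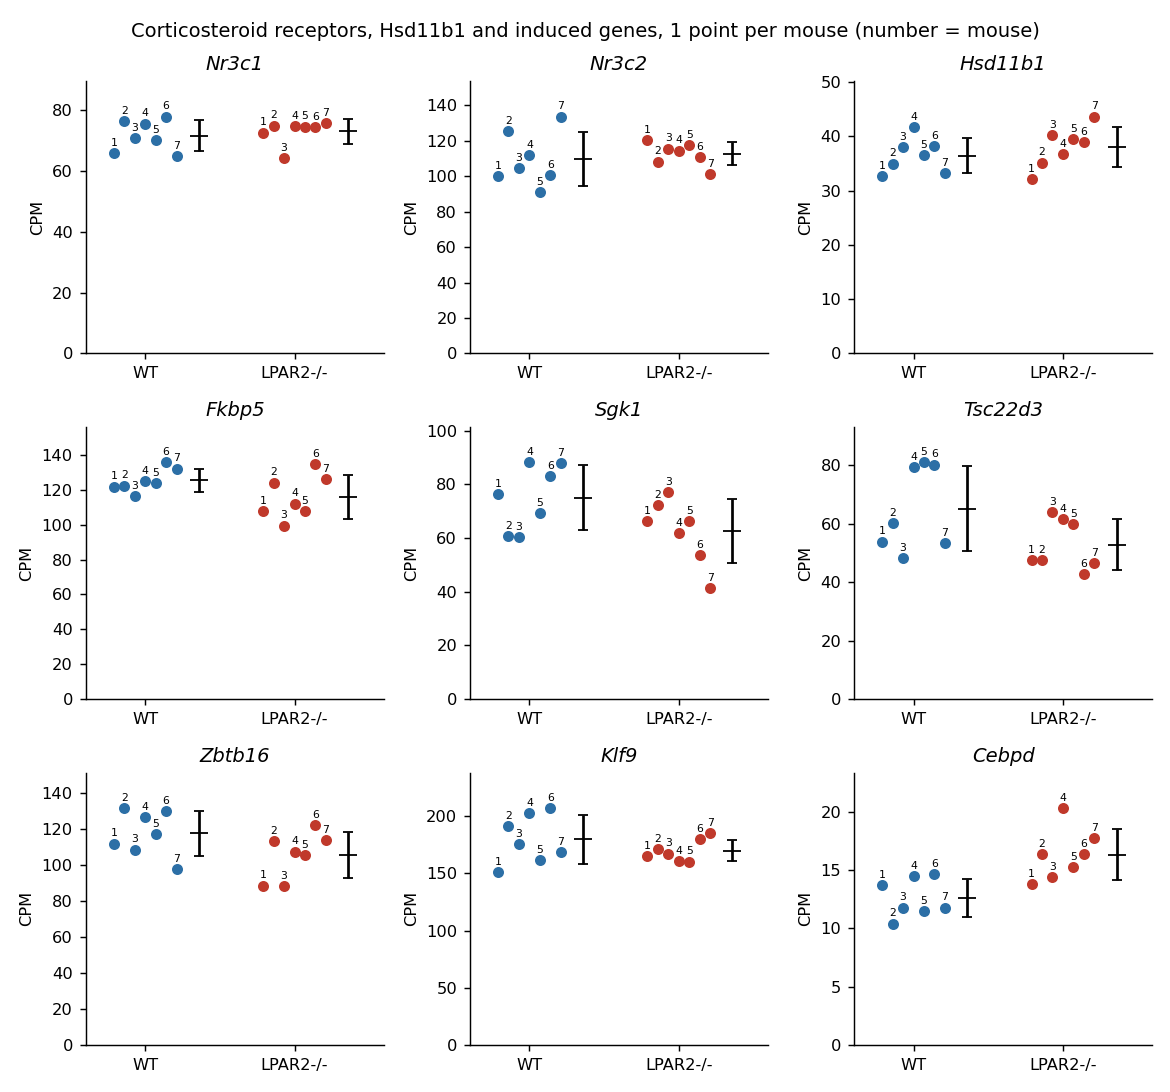
CPM (vertical axes, starting at 0) of the 9 genes in each mouse, WT in blue and LPAR2-/- in red, with the mouse number above each point and the mean ± SD of 7 mice beside it. For Cebpd 5 mice labelled LPAR2-/- lie above all WT mice, for Sgk1 LPAR2-/- mice 6 and 7 lie below all WT mice, and every panel shows overlap.

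Fkbp5 encodes a cochaperone of the receptors that lowers their hormone binding and is itself induced by them, a short negative feedback loop. The gene (chromosome 17, 28398753 to 28486149, minus strand) ranged from 99.5 to 135 CPM in mice labelled LPAR2-/- (median 112) and from 116 to 136 CPM in WT mice (median 124). LPAR2-/- mice 1, 3, 4 and 5 lay below all WT mice, and LPAR2-/- mice 2, 6 and 7 lay among them. The coefficient of variation was 10.8% in LPAR2-/- and 5.20% in WT mice. The log2 fold change was −0.11, with an interval from −0.24 to 0.01 (edgeR, adjusted p = 0.285). Without LPAR2-/- mice 6 and 7, a fit added after the data had been seen, it was −0.18 (edgeR, adjusted p = 0.0513).

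Sgk1, a kinase that regulates ion channels and transporters and responds to both receptors (chromosome 10, 21882184 to 21999902, plus strand), ranged from 41.5 to 77.0 CPM in mice labelled LPAR2-/- (median 66.4) and from 60.2 to 88.3 CPM in WT mice (median 76.5). LPAR2-/- mice 6 and 7 lay below all WT mice and 3 WT mice lay above all mice labelled LPAR2-/-. On the log2 scale Sgk1 had a fold change of −0.26, with an interval from −0.53 to 0.02 (edgeR, adjusted p = 0.258). Without LPAR2-/- mice 6 and 7 it was −0.12 (edgeR, adjusted p = 0.496). It is the gene whose promoter window is printed above.

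Tsc22d3, also known as Gilz, encodes a leucine zipper protein that mediates anti-inflammatory actions of glucocorticoids. The gene (chromosome X, 140539529 to 140600522, minus strand) ranged from 42.8 to 64.0 CPM in mice labelled LPAR2-/- (median 47.6) and from 48.2 to 81.0 CPM in WT mice (median 60.1). WT mice 4, 5 and 6 lay between 79.3 and 81.0 CPM, above all other mice, whereas the other WT mice lay among the mice labelled LPAR2-/-. The log2 fold change was −0.30, with an interval from −0.59 to −0.0025 (edgeR, unadjusted p = 0.0483, adjusted p = 0.218; exact two-sided permutation test of 7 mice against 7, p = 0.0862).

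Zbtb16, a zinc finger transcription factor also called PLZF (chromosome 9, 48654297 to 48835945, minus strand), ranged from 88.4 to 122 CPM in mice labelled LPAR2-/- (median 107) and from 97.8 to 132 CPM in WT mice (median 117). LPAR2-/- mice 1 and 3 lay below all WT mice, and only mouse 6 of this genotype lay above the WT median. This gave a log2 fold change of −0.16, with an interval from −0.33 to 0.01 (edgeR, adjusted p = 0.264).

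Klf9, a Krüppel-like transcription factor that glucocorticoids and thyroid hormone induce in neurons (chromosome 19, 23141226 to 23166911, plus strand), ranged from 160 to 185 CPM in mice labelled LPAR2-/- (median 167) and from 151 to 207 CPM in WT mice (median 176). As for Nr3c2, the WT range enclosed that of the mice labelled LPAR2-/-, with 1 WT mouse below and 3 above it. The log2 fold change was −0.08, with an interval from −0.22 to 0.06 (edgeR, adjusted p = 0.496).

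Levels of different genes were compared per exon length. In WT mice Klf9 had the highest level of the 9, with 55.1 ± 6.55 RPKM (SD, n = 7), and Cebpd the lowest, with 5.58 ± 0.729 RPKM (SD, n = 7), a ratio of 9.87. Fkbp5 followed with 32.3 ± 1.68 RPKM (SD, n = 7) and was above the next gene in all 7 WT mice. Nr3c2 (26.8 ± 3.73 RPKM, SD, n = 7), Hsd11b1 (25.2 ± 2.18 RPKM, SD, n = 7), Tsc22d3 (24.6 ± 5.47 RPKM, SD, n = 7) and Zbtb16 (23 ± 2.46 RPKM, SD, n = 7) did not differ beyond their spread, and neighbours among them changed places between mice. Sgk1 lay at 18.1 ± 2.89 RPKM (SD, n = 7). Nr3c1, with 11.3 ± 0.811 RPKM (SD, n = 7), was below Sgk1 and above Cebpd in all 7 WT mice. In mice labelled LPAR2-/- the order was the same except that Zbtb16 (20.7 ± 2.51 RPKM, SD, n = 7) and Tsc22d3 (19.96 ± 3.26 RPKM, SD, n = 7) changed places.

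**Figure D3:**
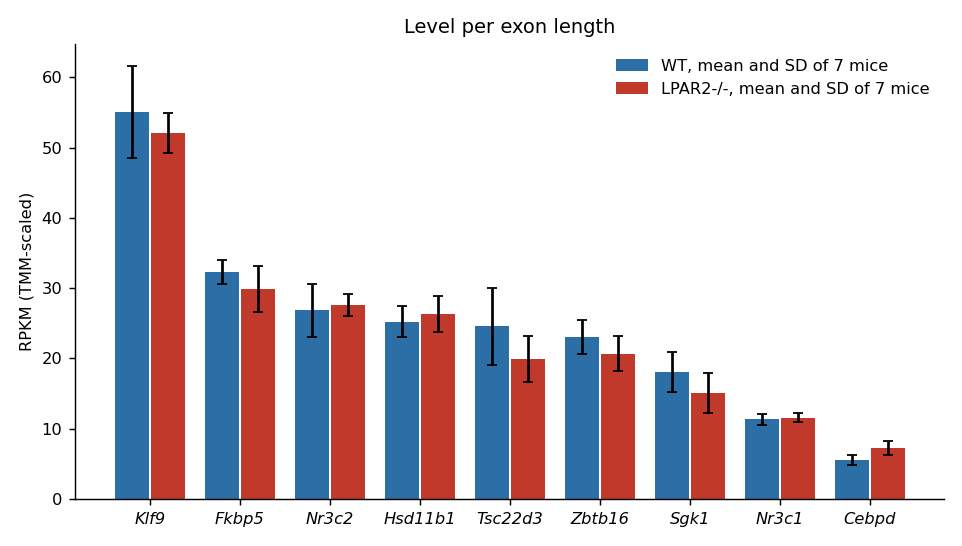
Level per exon length in RPKM (vertical axis) of the 9 genes, as mean and SD of 7 WT mice (blue) and 7 mice labelled LPAR2-/- (red), ordered by the WT mean. Klf9 stands highest, Cebpd lowest, and 4 genes from Nr3c2 to Zbtb16 overlap.

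The genes differed in how much they varied between mice of a genotype. The within-genotype SD of log2 CPM was smallest for Nr3c1, at 0.094, a value that 28.1% of all genes tested did not exceed. It was largest for Tsc22d3, at 0.28, and Sgk1, at 0.27, which stood at the percentiles 80.6 and 79.5 of all genes tested. Cebpd (0.19) and Zbtb16 (0.17) lay between these and Nr3c2 (0.15), Hsd11b1 (0.13), Klf9 (0.13) and Fkbp5 (0.12). The median over all genes was 0.14. The receptor genes thus varied less from mouse to mouse than Sgk1 and Tsc22d3 did.

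It was then asked whether the 9 genes vary together among mice of a genotype. Log2 CPM after removal of genotype means were correlated over 14 mice for 36 pairs, with permutations within genotypes and Benjamini-Hochberg adjustment over the pairs. The pair of Nr3c1 and Zbtb16 passed, with r = 0.81 (permutation p = 2.0e-04, adjusted p = 0.0072) and rho = 0.82 (permutation p = 8.9e-04, adjusted p = 0.032). The correlation was 0.73 within LPAR2-/- and 0.91 within WT mice, and 0.64 without the 2 mice farthest from the median of Nr3c1. A further 5 pairs had an unadjusted permutation p under 0.05 for r but did not pass the adjustment, among them Nr3c1 and Klf9 (r = 0.68, permutation p = 0.0178, adjusted p = 0.21; rho = 0.76, permutation p = 0.0140, adjusted p = 0.126) and Fkbp5 and Zbtb16 (r = 0.63, permutation p = 0.0240, adjusted p = 0.21; rho = 0.66, permutation p = 0.0129, adjusted p = 0.126). For Nr3c1 and Klf9, r was 0.20 within LPAR2-/- and 0.89 within WT mice, and 0.89 without the 2 mice farthest from the median of Nr3c1. For Fkbp5 and Zbtb16, r was 0.89 within LPAR2-/- and 0.086 within WT mice, and 0.39 without the 2 mice farthest from the median of Fkbp5. The difference between genotypes was not tested.

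Sgk1 and Tsc22d3, the pair with the largest spread, had r = 0.43 (permutation p = 0.124, adjusted p = 0.48) and rho = 0.38 (permutation p = 0.195, adjusted p = 0.502). Sgk1 and Zbtb16 had r = −0.40 (permutation p = 0.181, adjusted p = 0.48) and rho = −0.39 (permutation p = 0.189, adjusted p = 0.502). No pair within the 6 induced genes passed the adjustment.

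Depth and a component shared by many genes moved with some of these levels. After removal of genotype means, the log2 total count had a correlation of −0.74 with Fkbp5 and −0.45 with Klf9. For the other genes of the 9 it lay between −0.34 (Nr3c1) and 0.31 (Sgk1). The first principal component of all genes tested after removal of genotype means held 24.8% of the variance and had a correlation of 0.70 with the log2 total count. As a description, its correlation over the 14 mice was −0.80 with Fkbp5, −0.68 with Zbtb16, −0.56 with Nr3c1, 0.53 with Nr3c2, −0.52 with Klf9 and 0.52 with Sgk1. For Hsd11b1, Tsc22d3 and Cebpd it was −0.30, 0.25 and −0.25. With this component removed, the correlation of Nr3c1 and Zbtb16 was 0.70, and with the log2 total count removed it was 0.79. LPAR2-/- mouse 3 lay at its upper end and LPAR2-/- mice 6 and 7 at its lower end. The part of the component in the other correlations was not tested.

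**Figure D4:**
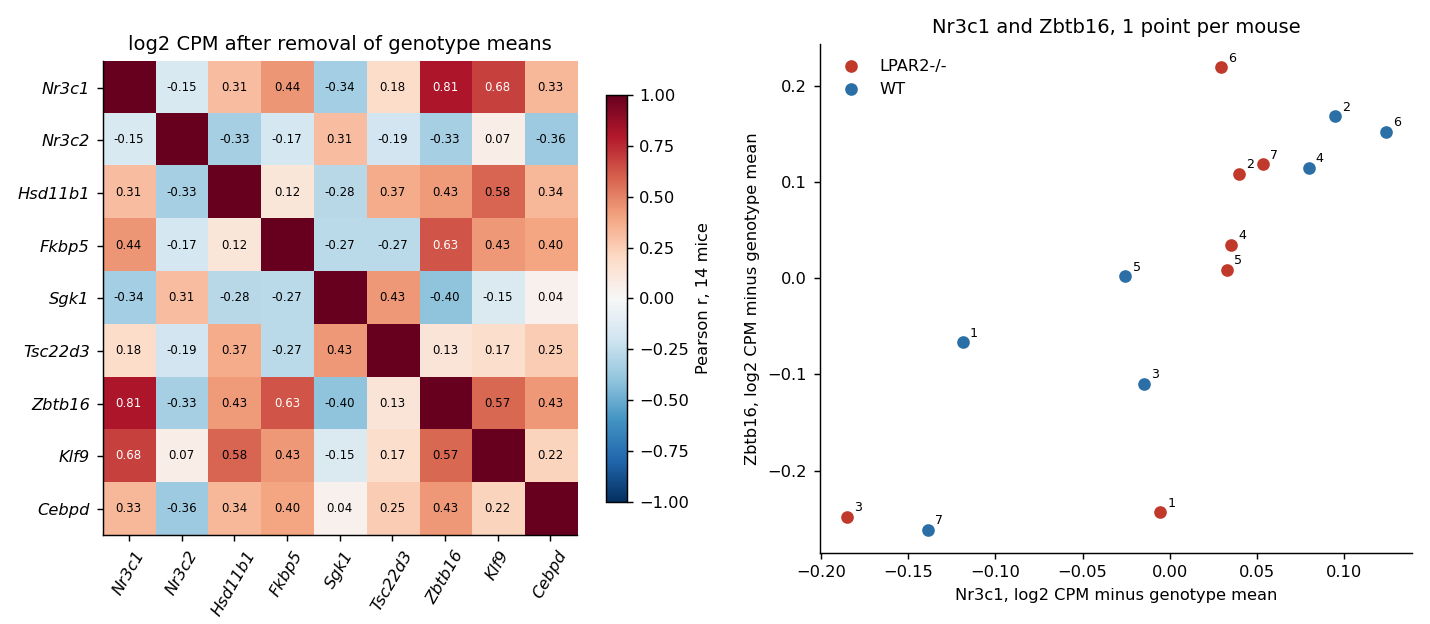
Left, Pearson r between the 9 genes over 14 mice, from log2 CPM after removal of genotype means (blue negative, red positive). Right, Nr3c1 against Zbtb16 on the same scale with 1 numbered point per mouse, in which the mice run from low in both genes (LPAR2-/- mouse 3 and WT mouse 7) to high in both (WT mouse 6), with r = 0.81.

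Among all genes tested, those with the highest r over these 14 mice are given for each of the 9, up to 3 each, as a description of likeness. They were Daxx (r = 0.91), Net1 (0.90) and Tcf4 (0.89) for Nr3c1, and Gm5577 (0.92), Zkscan16 (0.91) and Serpina3g (0.90) for Nr3c2. For Hsd11b1 they were Sclt1 (0.90), Nuf2 (0.90) and Cnn3 (0.89), and for Fkbp5 they included Dpp6 (0.93) and Orai2 (0.93). Those near Sgk1 included Spn (0.90) and Tex40 (0.88), and Tsc22d3 was nearest to Pam16 (0.87), Dusp1 (0.86) and Fcgr1 (0.86). Zbtb16 was nearest to Trmt1l (0.91), Nob1 (0.91) and Api5 (0.88), Klf9 to Kbtbd11 (0.93), Ankrd45 (0.91) and Iws1 (0.89), and Cebpd to S1pr2 (0.86), Ndufa4l2 (0.85) and Trim12a (0.85). None of the 9 was among these genes. A total of 85 genes were closer to Nr3c1 than Zbtb16 was, and 126 genes were closer to Zbtb16 than Nr3c1 was.

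Of the genes named in these lists, Dusp1, a phosphatase of MAP kinases that glucocorticoids and neuronal activity induce, passed the threshold between genotypes itself. It was lower in mice labelled LPAR2-/-, with a log2 fold change of −0.50 (edgeR, adjusted p = 0.0492).

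Other genes that corticosteroids induce were read from a list of 25. This list and those that follow were written with earlier results of these data known, so their counts are no independent test. Of the 25 genes, 24 were tested. Of these, 2 fell, none rose, and 10 had positive and 14 negative fold changes, with a median log2 fold change of −0.04. The share of all genes called lower was 3.46%. Cdkn1a, the cell cycle inhibitor p21, fell from 8.30 ± 2.00 CPM in WT to 4.06 ± 0.591 CPM in mice labelled LPAR2-/- (SD, n = 7 each), with a log2 fold change of −1.02 (edgeR, adjusted p = 0.000505), and its groups did not overlap. Dusp1 fell from 12.7 ± 2.84 to 8.996 ± 1.65 CPM (SD, n = 7 each), with groups that overlapped, and lost its call in 9 of 14 fits that left out 1 mouse (all but those without LPAR2-/- mouse 3 or 5 or WT mouse 1, 3 or 7) and in 5 of 8 other fits. Per1, a clock gene with a glucocorticoid response element, had 107 ± 5.88 CPM in LPAR2-/- and 102 ± 13.4 CPM in WT mice (SD, n = 7 each; edgeR, adjusted p = 0.614).

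Chaperones and cochaperones hold the receptors in the state that binds hormone. Of 16 such genes tested, 5 fell and none rose, 12 had negative fold changes, and the median was −0.13. Over all genes, 3.46% were called lower and 48.9% had negative fold changes. The list of chaperones, too, was written with earlier results of these data known. Hspa8, the constitutive Hsc70, fell from 263 ± 22.2 to 204 ± 21.6 CPM (SD, n = 7 each), with a log2 fold change of −0.37 (edgeR, adjusted p = 0.0041). Stip1, the Hop protein that links Hsp70 with Hsp90, fell from 187 ± 16.6 to 153 ± 7.45 CPM (SD, n = 7 each), by 0.28 on the log2 scale (edgeR, adjusted p = 0.0047). Dnajb1, an Hsp40, fell by 0.30 (edgeR, adjusted p = 0.0256) and lost its call in 6 of the 14 fits, those without LPAR2-/- mouse 4 or 5 or WT mouse 2, 4, 5 or 6. Dnajb1 lies on chromosome 8 (83608175 to 83612653), as Lpar2 does, but outside the window of 10 Mb around it. Ahsa1, an activator of Hsp90, fell by 0.19 (edgeR, adjusted p = 0.0165) and Hspa4 by 0.17 (edgeR, adjusted p = 0.0141). These chaperones serve many proteins besides the receptors. None of 19 coregulators of the receptors passed, with fold changes from −0.14 to 0.11 and a median of −0.03.

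Of 10 genes of steroid access and metabolism tested, 1 rose and none fell, with a median of 0.15, where 3.32% of all genes were called higher. Abcb1b, an efflux pump of the P-glycoprotein family, whose substrates include cortisol and dexamethasone, rose from 5.15 ± 0.681 to 6.44 ± 0.602 CPM (SD, n = 7 each), with a log2 fold change of 0.32 (edgeR, adjusted p = 0.0492), and kept its call only without WT mouse 1 or WT mouse 7 among the 14 fits. Abcb1a, of the same family, had 30.1 ± 5.99 CPM in LPAR2-/- and 26.8 ± 4.36 CPM in WT mice (SD, n = 7 each). It did not pass (log2 fold change 0.17, edgeR, adjusted p = 0.444). None of 5 genes of corticotropin-releasing hormone (CRH), its relatives and receptors passed. Their median was −0.19.

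Clock genes are given because corticosterone follows a daily rhythm. Of 17 tested, 4 rose and 3 fell, where 3.32% of all genes were called higher and 3.46% lower. Among the 14 fits that left out 1 mouse, Cry2, which rose, lost its call in 10 (all but those without LPAR2-/- mouse 3 or 5 or WT mouse 1 or 7) and Clock, which fell, in 4 (without LPAR2-/- mouse 1 or WT mouse 2, 4 or 6). Without LPAR2-/- mice 6 and 7, 2 clock genes were higher and 3 lower. Dbp, a clock output factor, rose from 37.2 ± 6.13 to 69.4 ± 8.82 CPM (SD, n = 7 each), with a log2 fold change of 0.90 (edgeR, adjusted p = 1.3e-04), and Ciart, a repressor in the clock loop, rose by 0.87 (edgeR, adjusted p = 1.3e-04). Nr1d2 rose by 0.21 (edgeR, adjusted p = 0.0224) but did not pass without LPAR2-/- mice 6 and 7 (log2 fold change 0.18, edgeR, adjusted p = 0.0545). Nfil3, a repressor at the sites Dbp uses, fell by 0.56 (edgeR, adjusted p = 0.0142), and Arntl, the clock activator also called Bmal1, fell by 0.40 (edgeR, adjusted p = 0.0028). Nr1d1 had a log2 fold change of 0.12 (edgeR, adjusted p = 0.199). The part of the clock genes in the values of the 9 genes was not tested.

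**Figure D5:**
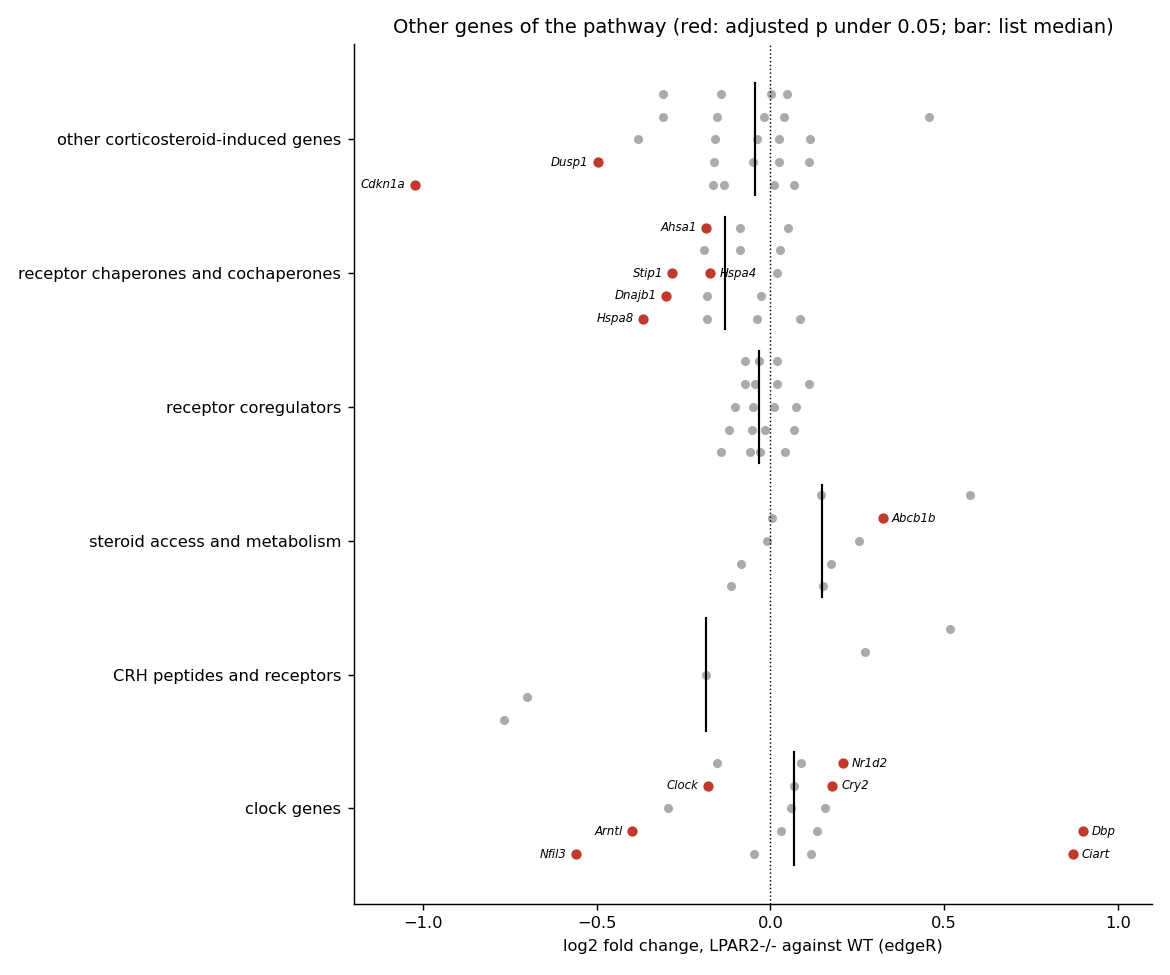
Log2 fold change between LPAR2-/- and WT mice (horizontal axis, edgeR) of every tested gene in 6 lists, with 1 point per gene spread vertically for legibility, red for an adjusted p under 0.05 and a bar for the list median. The named chaperones lie left of 0, the coregulators cluster around 0, and the clock genes lie on both sides.

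Markers of the labelled tissue were present in every mouse. The summed level of 6 dentate granule cell markers ranged from 607 to 887 CPM in mice labelled LPAR2-/- and from 609 to 882 CPM in WT mice, and that of 6 CA3 markers from 135 to 304 and from 193 to 328 CPM. Markers of CA1 ranged from 84.1 to 171 CPM in mice labelled LPAR2-/-. WT mouse 2, which had the lowest level of Cebpd, stood apart with 333 CPM, and the other WT mice had 98.2 to 136 CPM. Without that mouse Cebpd did not pass (log2 fold change 0.33, edgeR, adjusted p = 0.0620). Cebpd also missed the threshold without LPAR2-/- mouse 4, WT mouse 3 or WT mouse 5, whose CA1 sums were 171, 121 and 108 CPM. Of the region markers, 2 of 6 for CA2, 1 of 6 for dentate granule cells and 1 of 7 for cortex passed as higher in mice labelled LPAR2-/-, and the summed level of the cortex list ranged from 343 to 412 against 312 to 369 CPM. Of 5 markers of oligodendrocyte precursors, 1 passed as lower. Over all genes, 3.32% were called higher and 3.46% lower. All 8 marker genes of the meninges were tested and 7 had positive fold changes, with a median of 1.05 and 1 gene past the threshold as higher (3.32% of all genes). Their summed level ranged from 79.7 to 456 CPM in mice labelled LPAR2-/- and from 55.2 to 327 CPM in WT mice. Of 7 markers of pericytes and smooth muscle none passed, with a median of 0.31 and summed levels of 114 to 256 against 84.2 to 217 CPM. Of 7 choroid plexus markers 3 were tested and none passed, and the summed level of the 7 had a median of 35.5 CPM in mice labelled LPAR2-/- and 32.8 CPM in WT mice. LPAR2-/- mouse 2 stood apart with 292 CPM, and the other mice had 27.9 to 52.4 CPM. Of 7 oligodendrocyte markers 6 had positive fold changes and none passed. LPAR2-/- mouse 3 had the highest sum of that list, 3892 CPM, and the other mice had 972 to 2035 CPM. Of 7 striatal markers 6 had positive fold changes, up to 1.72, and none passed, with summed levels of 90.2 to 109 against 82.0 to 98.9 CPM. Endothelial markers (7 tested, none past the threshold) had a median of 0.14 and summed levels of 196 to 286 against 179 to 281 CPM, and microglial markers (7 tested, none past the threshold) a median of 0.09 and 339 to 412 against 338 to 427 CPM. The markers of neurons (7 tested, median −0.05) and astrocytes (7 tested, median −0.05) had none past the threshold. Of the marker lists, no gene was at 0 in every mouse except 4 haemoglobin genes, which are near-identical copies. The part of the CA1, meningeal and vascular markers in the rise of Cebpd was not tested.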

How the data were processed

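Total RNA of 14 hippocampi was depleted of ribosomal RNA, made into Illumina TruSeq libraries and sequenced by the authors. Per the labels and the file headers, adapters were removed with cutadapt 1.18, STAR placed the reads on mm10, and featureCounts 1.6.3 counted them on the exons of each gene for the reverse strand, which leaves out reads that match several places or several genes. The deposited counts carry no normalization. A second deposited table of 16510 entries holds normalized signal, that is counts scaled by gene length and by size factors from DESeq2 1.22.2. After lost decimal points were restored, 99.9% of the values of 1 or more were within 1% of counts rescaled likewise. No column of either table was left unassigned.

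Counts were normalized by TMM and tested in R 4.3.3 with edgeR 4.0.16 (quasi-likelihood F test, robust), 7 mice against 7 without covariates, over the 14897 genes that passed filterByExpr, with Benjamini-Hochberg adjustment and a threshold of 0.05. Mice were treated as separate animals. Levels are given as CPM, and log2 CPM used a prior count of 2. Correlations were tested with 1e+05 permutations. The alternatives used DESeq2 1.42.0, limma 3.58.1 on the authors' normalized signal (pseudocount of 1, or none), other scalings and filters, a replicate block, and each mouse left out.

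The 9 genes, the lists and the tests were chosen with earlier results of these data known. Genes named are the 9, up to 5 genes past the threshold per list, the 3 most alike for each of the 9, Lpar2, Per1, Dbp and Nr1d1. Outside this rule, Cry2, Clock, Abcb1a, Crh, Crhbp, Pomc and Akr1c14 were named after their values had been seen. Of the most alike, 2 genes are not reported here. On simulated data with 200 of 14897 genes changed, edgeR recovered 99% of changes of 1 and 100% of changes of 2 on the log2 scale, with 4.78% of calls on unchanged genes. Changes as small as those of the 9 genes were not simulated, so these rates say nothing about them. No libraries of a genotype were copies (over 42 pairs, chi-square divided by its degrees of freedom was at least 3.41). At these depths a count of 0 would allow up to 3 counts, which covers counting error only.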

Additional observations from a re-analysis of the deposited data

Results flagged for a closer look

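The level of Nr3c1 in LPAR2-/- mouse 3 lay apart from the other mice of its genotype. It was 64.1 CPM, while the other 6 ranged from 72.6 to 75.6 CPM, and the gap to the nearest mouse was 0.738 of the whole range of the group, above Dixon's 95% critical value for 7 mice. A total of 18 groups (9 genes in 2 genotypes) were examined, and chance marks about 1 in 20 such groups. The same mouse had the highest value on the first component of the genes tested and was the lowest LPAR2-/- mouse for Fkbp5 and Zbtb16 and the highest for Sgk1 and Tsc22d3. Its part in these values was not tested.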

How the results depend on the processing

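Same-numbered mice had residual correlations from −0.334 to 0.311, 3 of 7 above 0.1, so the numbers do not pair the mice. When this number entered the fit as a replicate block, 314 genes were higher and 272 lower, against 494 and 515 without it, and Cebpd kept its call (log2 fold change 0.37, edgeR, adjusted p = 0.0346). Under the block Nfil3 (−0.54, edgeR, adjusted p = 0.0589), Clock (−0.18, 0.0670), Hspa4 (−0.17, 0.0512), Dusp1 (−0.49, 0.05003) and Abcb1b (0.33, 0.112) did not pass. Fits that left out 1 mouse called 275 to 660 genes higher and 292 to 725 lower, and 0 to 1 of the 9 genes higher. In these fits the log2 fold change of Cebpd ranged from 0.31 to 0.41 and that of Nr3c2 from −0.0016 (without WT mouse 5) to 0.093. The ranges were 0.0043 to 0.056 for Nr3c1, 0.026 to 0.097 for Hsd11b1, −0.12 to −0.045 for Klf9, −0.15 to −0.078 for Fkbp5, −0.31 to −0.18 for Sgk1, −0.36 to −0.24 for Tsc22d3 and −0.20 to −0.12 for Zbtb16. Without LPAR2-/- mice 6 and 7, chosen after seeing the data, 0 of the 9 genes passed, and the log2 fold change of Cebpd was 0.35 (edgeR, adjusted p = 0.0588). In none of the 23 alternative fits did any gene of the 9 other than Cebpd pass, and apart from Nr3c2 none changed its sign. Cdkn1a, Hspa8, Stip1, Ahsa1, Arntl, Dbp and Ciart passed in all of these fits. Cebpd had the fewest counts of the 9 genes.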

Other observations

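A few genes of the lists of CRH peptides and of steroid metabolism that did not pass the threshold were chosen after their values had been seen. Crh, the hypothalamic releasing hormone that hippocampal interneurons also make, had 0.639 ± 0.254 CPM in LPAR2-/- and 1.09 ± 0.366 CPM in WT mice (SD, n = 7 each), with a log2 fold change of −0.77 (edgeR, adjusted p = 0.0968). Crhbp, which binds the peptide, had 3.59 ± 1.58 and 5.87 ± 2.72 CPM (SD, n = 7 each), with −0.70 (edgeR, adjusted p = 0.210). Pomc, the precursor of adrenocorticotropin, had 1.07 ± 0.215 and 0.754 ± 0.147 CPM (SD, n = 7 each), with 0.52 (edgeR, adjusted p = 0.0945). Akr1c14, an enzyme of neurosteroid metabolism, had 3.40 ± 1.11 and 2.27 ± 0.458 CPM (SD, n = 7 each), with 0.57 (edgeR, adjusted p = 0.110). For each of these genes the groups overlapped.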
